A study of Homo sapiens with 8 samples.

Results

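FBXW7 knockout (KO) and wild-type (WT) HCT116 cells were compared at the end of a heat shock. HCT116 is a human colon carcinoma line of epithelial origin. Both lines were kept at 42 °C for 1 h, and the groups compared here were the KO heat shock group and the WT heat shock group, with 2 libraries each. These are 4 of the 8 libraries of the series, chosen by their labels, and all genes were taken. The other 4 libraries came from the same lines after 2 h of recovery at 37 °C, and are used below only to ask whether a difference between the lines also stood there. Heat is thus shared by all groups, and unheated cells were not analysed here, so a difference between the lines below may or may not have been there before heating. The sources used here do not give the exons removed in the KO line, its clone or its passage. Nothing beyond the name biological replicate says that replicate libraries came from separate cultures, and the p-values therefore reflect the spread among libraries, which may be technical.

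FBXW7 is an F-box protein. It holds phosphorylated proteins for an SCF-type ubiquitin ligase, built on the cullin CUL1, the adaptor SKP1 and the RING protein RBX1, and the ligase marks them for the proteasome. Known substrates include cyclin E, MYC, JUN, Notch receptors, SREBP factors and HSF1, the transcription factor that turns on chaperone genes when proteins unfold in heated cells. FBXW7 acts on proteins, so the RNA of a substrate need not follow its protein, and protein levels were not measured here. Colon carcinomas often carry FBXW7 mutations.

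The 4 libraries at heat shock held 20248480 and 19979779 counts in WT and 26102649 and 34387618 in KO. Reads were seen for 32200 of 55075 listed genes, and 17471 passed the filter on low counts. Levels are given as CPM, counts scaled by library size, with replicate 1 before replicate 2. Differences are log2 of KO over WT from edgeR's quasi-likelihood test, with n = 2 libraries per line. The value after ± is an approximate standard error (SE), the absolute difference over the square root of the test's F statistic. The spread behind it was pooled over all 8 libraries. A gene passed at a Benjamini-Hochberg adjusted p under 0.05. The replicates of WT differed from each other more than those of KO, with 19 against 4.91 for chi-square over its degrees of freedom. No column name says which library is the heat shock one: this was read from the naming order of each deposited comparison alone. The deposited log2 fold change is the ratio of the first to the second column and does not show it.

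The FBXW7 transcript itself was lower in KO and was not absent. It stood at 33.5 and 31.4 CPM in the WT libraries and at 17.4 and 14.9 CPM in the KO libraries. The groups did not overlap, and the log2 difference was -1.01 ± 0.10 (edgeR adjusted p = 1.9e-06). At recovery the difference was -0.68, and the change between the conditions did not pass (-0.32 ± 0.15, adjusted p = 0.077). Counts cover the gene as a whole, so reads from exons outside a deletion would remain, and how far this checks the label was not tested.

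The difference between the lines was broad. Of 17471 genes, 4781 (27.4%) were higher in KO and 4925 (28.2%) were lower, so 55.6% passed in either direction. At least 2-fold, 1026 genes (5.87%) were higher and 1560 (8.93%) lower. CPM did not overlap between the lines for 76.1% of all genes tested. Among the 13267 protein-coding genes tested, 4083 were higher and 3979 lower, a larger share in each direction than over all genes. Most list members are protein-coding. These shares and counts are the background against which the counts of list members below are read. The plot of KO against WT levels shows genes on both sides of the diagonal at every level.

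**Figure D1:**
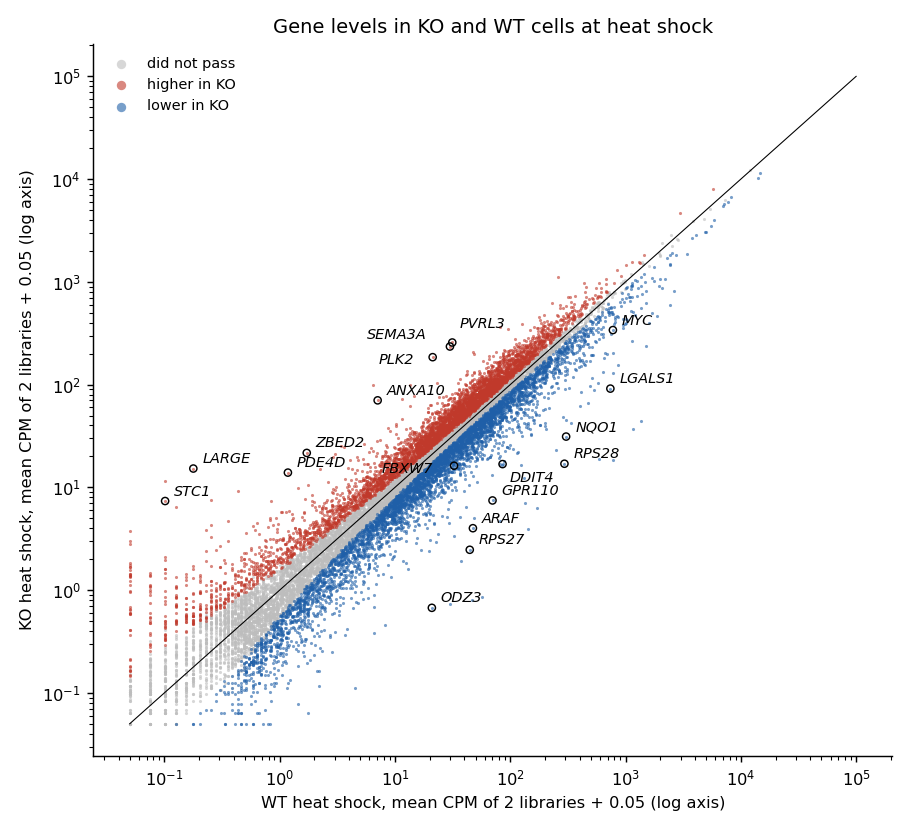
Mean CPM of the 2 WT heat shock libraries (x axis, log scale, 0.05 added) against the mean of the 2 KO heat shock libraries (y axis, log scale, 0.05 added), 1 point per tested gene, coloured by call. NQO1 and RPS28 lie far below the diagonal, at 310 and 299 CPM in WT against 29.8 and 32.4 in KO for NQO1, and PLK2 lies far above it, at 19.9 and 22.4 against 183 and 186.

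The base composition and length of transcripts moved with the difference. Both were taken from the longest annotated transcript of each gene, which need not be the one expressed. Among protein-coding genes whose transcripts have a GC content under 40%, the median log2 difference was 0.50, and 68.5% were higher in KO and 6.11% lower. At a GC content of 60% and over the median was -0.38, with 8.13% higher and 50.8% lower. By length, the median ran from -0.46 for transcripts under 600 bases and -0.47 from 600 to 1000 bases to 0.12 at 6000 bases and over. At recovery these medians broadly ran the other way, as the plot of classes shows. Genes with a GC content under 40% took 10.7% and 12.4% of protein-coding counts in WT at heat shock and 17.1% and 16.6% in KO at heat shock, with 14.9% and 15.4% in WT and 12.1% and 13.0% in KO at recovery. The part of this pattern in the differences below was not tested as a cause. A fit with offsets for length and GC content per library was run beside the main one, and its counts are given below for some of the lists where they differ. Other lists moved too. With the offsets, 6 mitochondrial chaperones and proteases were higher and 5 lower, and 10 and 6 targets of YAP and TEAD. The counts were 20 and 6 for ribosome biogenesis and 20 and 11 for G1/S and DNA replication. They were 9 and 11 for epithelial genes and 3 and 20 for interferon genes. The median of mesenchymal genes was -0.39 in the main fit and -0.11 with the offsets.

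**Figure D2:**
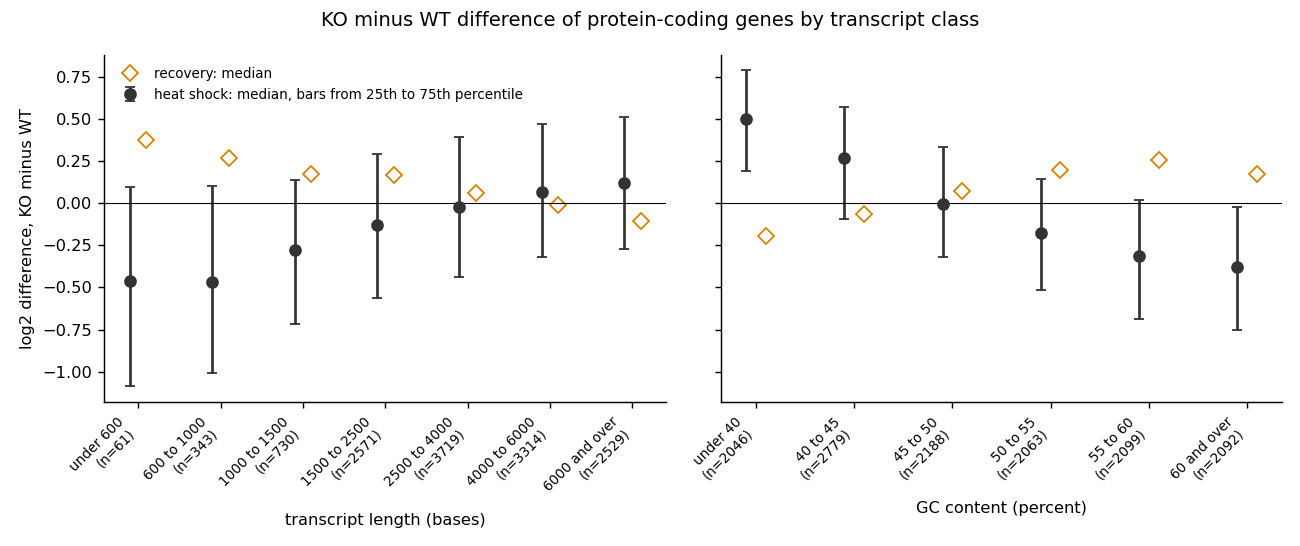
Median log2 difference between KO and WT (y axis) of protein-coding genes by class of transcript length (left) and GC content (right), with the number of genes in each class. Filled points are heat shock with bars from the 25th to the 75th percentile, open diamonds are recovery medians, and at heat shock the medians run from 0.50 under 40% GC to -0.38 at 60% and over.

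A minority of the genes that differed at heat shock passed in the same direction at recovery. Of the 4781 genes higher in KO, 1902 (39.8%) were higher at recovery too, 1151 (24.1%) were lower there, and 1728 did not pass. Of the 4925 lower genes, 1745 (35.4%) were lower at recovery, 1569 (31.9%) were higher and 1611 did not pass. At recovery 31.8% of all genes were higher and 31.3% lower. The change of the line difference between the conditions passed for 57.2% of all genes. The differences at the 2 conditions, which share no library, correlated at r = 0.281 across 17471 genes, which are not independent replicates.

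Several genes read in KO were almost without reads in WT. PODXL2, a sialomucin related to podocalyxin, had no count in either WT library and 3.41 and 3.95 CPM in KO, at least 48.3-fold higher over a floor of 3 counts for the WT group. STC1, the secreted glycoprotein stanniocalcin, had 0 and 0.103 CPM in WT and 6.74 and 7.87 in KO, a ratio of 144 with a 95% counting interval from 39.7 to 1193. LARGE, a glycosyltransferase that extends sugars on dystroglycan, stood at 0.205 and 0.0513 CPM in WT and 15.3 and 15.1 in KO (6.83 ± 0.29, edgeR adjusted p = 5.1e-10). SPRR2D, a cornified envelope protein, had 3 counts in all in WT, and its ratio was 81.6 (27.7 to 397). These intervals and floors hold counting error alone. In each of these genes KO was also higher at recovery, and for PODXL2, STC1 and LARGE the change between the conditions did not pass.

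Other genes of this kind were read in both lines. PLK2, a polo-like kinase, stood at 19.9 and 22.4 CPM in WT and at 183 and 186 in KO (3.13 ± 0.09, edgeR adjusted p = 1.1e-11). PVRL3, the adhesion molecule nectin-3, was at 30.7 and 32.0 CPM against 260 and 254 (3.03 ± 0.09). SEMA3A, a secreted guidance cue, was at 27.7 and 32.1 against 234 and 235 (2.97 ± 0.09). ANXA10, an annexin of gastric epithelium, was at 6.60 and 7.44 against 69.2 and 71.2 (3.32 ± 0.11). In these 4 genes each KO library lay above both WT libraries, which the choice of the largest differences required. Replicates lay close together. Further genes in the same range were the membrane protein TM4SF18 (5.14), the SNARE-binding protein STXBP6 (4.55), the galactosyltransferase B3GALT1 (3.94), the OX40 ligand TNFSF4 (3.90), the zinc finger gene ZBED2 (3.69), the phosphodiesterase PDE4D (3.61), the metalloproteinase inhibitor TIMP3 (2.94) and the kinase DCLK1 (2.92). NEB, the muscle protein nebulin, was higher by 3.18, but RIF1 overlaps it on the other strand and carries more reads.

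Among the largest differences in the other direction, NQO1, a quinone reductase and target of the factor NRF2, stood at 310 and 299 CPM in WT and 29.8 and 32.4 in KO (-3.29 ± 0.09, edgeR adjusted p = 9.5e-12). ODZ3, the teneurin now called TENM3, was at 22.8 and 18.8 CPM against 0.562 and 0.682 (-5.04 ± 0.19). ARAF, a RAF kinase on the X chromosome, was at 53.5 and 41.2 against 3.89 and 4.01 (-3.58 ± 0.14). GPR110, an adhesion receptor, was at 66.1 and 74.0 against 6.81 and 7.99 (-3.23 ± 0.13). The KO libraries were below both WT libraries in all 4, which their choice required. PROM2, a prominin of epithelial protrusions (-4.23), ABCC3, an export pump of conjugated organic anions (-2.80), CPVL, a carboxypeptidase (-2.79), and ZNF780B, a zinc finger gene (-2.77), also belonged here.

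The same genes were lower at recovery: the log2 difference there was -3.37 for NQO1, -4.40 for ODZ3, -3.67 for GPR110 and -3.37 for PROM2, and for NQO1, ODZ3 and PROM2 the change between conditions did not pass. For ARAF it did (-2.39 at recovery). LGALS1, the lectin galectin-1, was at 803 and 673 CPM in WT and 87.0 and 95.6 in KO (-3.01 ± 0.15), and at recovery its difference was -0.50. BLVRB, a biliverdin reductase, stood at -2.91 at heat shock and -0.67 at recovery. A further 5 genes among the largest differences overlap a gene with more reads: WDR38 with RPL35, NAALADL1 with SAC3D1, REC8 with IPO4, RASGRP4 with FAM98C and ADCK5 with CPSF1, all on the other strand. Libraries were strand-specific per the labels' protocols, but the sources used here do not say how the counting used strand. EPN3, an epsin of endocytosis (-3.05), shares its strand with the overlapping SPATA20.

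HSF1 RNA was lower in KO at heat shock. It stood at 118 and 94.8 CPM in WT and at 62.2 and 64.4 in KO, with no overlap (-0.75 ± 0.10, edgeR adjusted p = 2.4e-05). At recovery the lines differed by -0.04 (adjusted p = 0.729), and the change of the difference passed. HSF2, a related heat shock factor that can pair with HSF1, went the other way, with 17.3 and 21.6 CPM in WT and 28.6 and 30.7 in KO (0.61 ± 0.11, adjusted p = 0.00035), and was lower in KO at recovery (-0.50). Neither passed against a minimum change of 1.5-fold. With offsets for length and GC content they kept their direction, at -0.40 for HSF1 and 0.25 for HSF2.

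HSF1 is known to bind heat shock elements, which are inverted repeats of GAA. A run of 3 units, GAANNTTCNNGAA or TTCNNGAANNTTC, was searched in the 250 bases before the start of each gene in the RefSeq promoter windows of GRCh38.p14. Both spellings and hence both strands were searched, and a run of 4 units counts under both. It was held by 155 of 35116 windows (0.441%). Of 85 tested members of the lists of cytosolic chaperones, mitochondrial chaperones and the ER stress response, 72 had a window and 7 of these held the run. This counts genes, and a gene with several windows counted if any held the run. The share above counts single windows, so the values are not in the same unit. The stretches around the matches are printed because they hold the letters of this element. Matched letters are in capitals, 5′ to 3′ on the gene's strand, and binding of HSF1 to them was not measured here. HSPA1B, the classical inducible Hsp70 gene, is shown with its run of 2 units, GAANNTTC or TTCNNGAA, which 11.6% of all windows hold.
HSPA8, chr11:123062164-123062381, minus strand: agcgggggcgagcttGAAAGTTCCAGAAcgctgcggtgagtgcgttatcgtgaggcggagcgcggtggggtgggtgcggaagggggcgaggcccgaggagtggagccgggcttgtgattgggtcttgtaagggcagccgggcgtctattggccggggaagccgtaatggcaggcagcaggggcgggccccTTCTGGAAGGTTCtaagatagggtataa
SERPINH1, chr11:75562162-75562204, plus strand: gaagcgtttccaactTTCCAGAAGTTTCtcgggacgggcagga
HSP90AA1, chr14:102087105-102087147, minus strand: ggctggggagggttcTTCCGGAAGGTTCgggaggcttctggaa
HSP90AB1, chr6:44247763-44247858, plus strand: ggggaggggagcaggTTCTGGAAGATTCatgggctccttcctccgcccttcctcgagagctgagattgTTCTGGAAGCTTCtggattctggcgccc
HSPD1, chr2:197500053-197500090, minus strand: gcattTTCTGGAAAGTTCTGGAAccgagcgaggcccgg
CHORDC1, chr11:90223072-90223124, minus strand: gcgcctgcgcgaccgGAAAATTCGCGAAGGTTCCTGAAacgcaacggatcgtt
DNAJB6, chr7:157336858-157336900, plus strand: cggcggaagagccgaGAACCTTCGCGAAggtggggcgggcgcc
HSPA1B, chr6:31827618-31827655, plus strand: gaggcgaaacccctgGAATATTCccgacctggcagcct

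Genes with these matches differed in both directions. They were singled out by the search, after their values were seen. HSPA8, the constitutive Hsp70, stood at 5608 and 4203 CPM in WT and 3113 and 2932 in KO (-0.70 ± 0.12, edgeR adjusted p = 0.00022). SERPINH1, the collagen chaperone Hsp47, was at 377 and 223 against 148 and 124 (-1.14). A total of 3 matched genes were higher in KO: CHORDC1, a co-chaperone of Hsp90, at 91.5 and 76.0 CPM against 158 and 128 (0.77), DNAJB6, an Hsp40 protein, at 75.6 and 67.5 against 95.5 and 96.9 (0.43), and HSPD1, the mitochondrial Hsp60, at 1379 and 1294 against 1541 and 1520 (0.20 ± 0.08, adjusted p = 0.044 by edgeR). The Hsp90 genes HSP90AA1 (-0.06) and HSP90AB1 (0.01) did not pass. A match of letters is a description and not a site.

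Several inducible chaperones did not pass between the lines at the end of heating. HSPA1B was at 215 and 119 CPM in WT and 153 and 136 in KO, so the KO libraries lay between the WT libraries (-0.21 ± 0.20, edgeR adjusted p = 0.411). BAG3, an Hsp70 exchange factor, was at 283 and 171 against 254 and 199 (-0.01 ± 0.17), and HSPH1, the Hsp110 protein, at 469 and 374 against 458 and 406 (0.04 ± 0.11). These 3 were named after their values were seen. HSPA6 and CRYAB of the same list did not pass the filter on low counts. HSPA6 had 0 and 0 counts in WT and 2 and 2 in KO, and CRYAB 0 and 0 against 0 and 1. HSPA1A and HSPA1B have nearly identical transcripts, and reads that fit both may have been split between them. At recovery the same gene differed widely, with 26.4 and 19.9 CPM of HSPA1B in WT and 414 and 312 in KO (3.97). Each KO library lay above both WT libraries there.

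Of 38 tested cytosolic chaperones, 18 were higher in KO at heat shock and 7 lower, with a median of 0.12, beside a median of -0.03 over all genes. At recovery 29 were higher and 3 lower, with a median of 0.92, and the change between conditions passed for 27. DNAJB4, an Hsp40 protein, had the largest difference, at 27.1 and 28.4 CPM in WT and 91.4 and 64.0 in KO (1.48 ± 0.13, adjusted p = 5.6e-07 by edgeR). BAG2, a co-chaperone of the ubiquitin ligase CHIP (0.87 ± 0.08), and PPID, the cyclophilin Cyp40 (0.71 ± 0.08), were also higher. HSPB1, the small heat shock protein Hsp27, was lower, at 477 and 367 CPM against 166 and 179 (-1.29 ± 0.11). HSPB1 was the only list member lower by at least 2-fold. Offsets for length and GC content left 11 higher and 5 lower. Without the first KO or the second WT library the median was 0.05, and without the second KO or the first WT library it was 0.22 or 0.23. A total of 12 were lower without the second WT library.

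The chaperonin CCT, which folds actin and tubulin, and its partner prefoldin had 7 of 14 members higher and 3 lower, with log2 differences from -0.62 to 0.56. CCT4 was at 399 and 470 CPM in WT and 607 and 609 in KO (0.48), while CCT3 was at 1068 and 1011 against 758 and 751 (-0.46). Among 18 mitochondrial chaperones and proteases 9 were higher and 8 lower. HSPA9, the mitochondrial Hsp70 (0.50), the proteases YME1L1 (0.70) and PITRM1 (0.45) and the nucleotide exchange factor GRPEL2 (0.73) were higher, and HSPE1, the Hsp10 partner of HSPD1, was lower, at 247 and 295 CPM against 166 and 153 (-0.76 ± 0.11). HSPD1, which has more reads and was higher, overlaps HSPE1 on the other strand. Without the second WT library 5 CCT and prefoldin members were lower.

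The ER stress response, which raises folding capacity in the endoplasmic reticulum, had 15 of 29 members higher and 7 lower, with a median of 0.27. ERO1L, an oxidase that feeds disulfide formation, was at 92.3 and 129 CPM in WT and 267 and 290 in KO (1.33 ± 0.13, edgeR adjusted p = 1.1e-06). The calnexin gene CANX (0.53), the disulfide isomerase PDIA6 (0.52) and the co-chaperone DNAJC3 (0.59) were also higher, and SDF2L1, an ER co-chaperone, was lower, at 56.6 and 40.3 CPM against 22.3 and 22.9 (-1.10 ± 0.15). Under offsets for length and GC content 9 were higher and 8 lower, and the median was 0.03. DNAJC3 did not pass under those offsets.

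Transcripts of the substrates of FBXW7 did not share a direction. Of 41 tested, 14 were higher and 16 lower, with a median of 0.04 that turned to -0.02 with upper-quartile scaling and to -0.04 without the second WT library. MYC stood at 802 and 751 CPM in WT and at 329 and 350 in KO, with no overlap (-1.19 ± 0.09, edgeR adjusted p = 7.8e-08). At recovery the order was reversed, with 258 CPM in WT and 574 in KO on average (1.15), and the change of -2.35 between the conditions passed (adjusted p = 1.4e-08). JUN was at 28.9 and 18.2 CPM in WT and 10.5 and 10.8 in KO (-1.14 ± 0.17, adjusted p = 5.6e-05). CCNE1, which encodes cyclin E and drives entry into S phase, was at 31.4 and 28.7 in WT and 48.7 and 47.0 in KO (0.67 ± 0.09, adjusted p = 3.3e-05) and did not pass against a minimum of 1.5-fold.

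Other substrate genes with lower RNA in KO were the transcription factors KLF2, at 53.5 and 47.4 CPM against 18.0 and 21.5 (-1.35 ± 0.11), and TGIF1, at 108 and 106 against 44.3 and 47.8 (-1.22 ± 0.08). NOTCH3 was lower as well (-0.93). DEK, a chromatin protein, was higher, at 165 and 207 CPM against 409 and 383 (1.09 ± 0.10). HIF1A was higher by 0.23 and was lower by 0.34 with offsets for length and GC content, so its direction depends on that choice. It did not pass without either KO library or the first WT library.

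**Figure D3:**
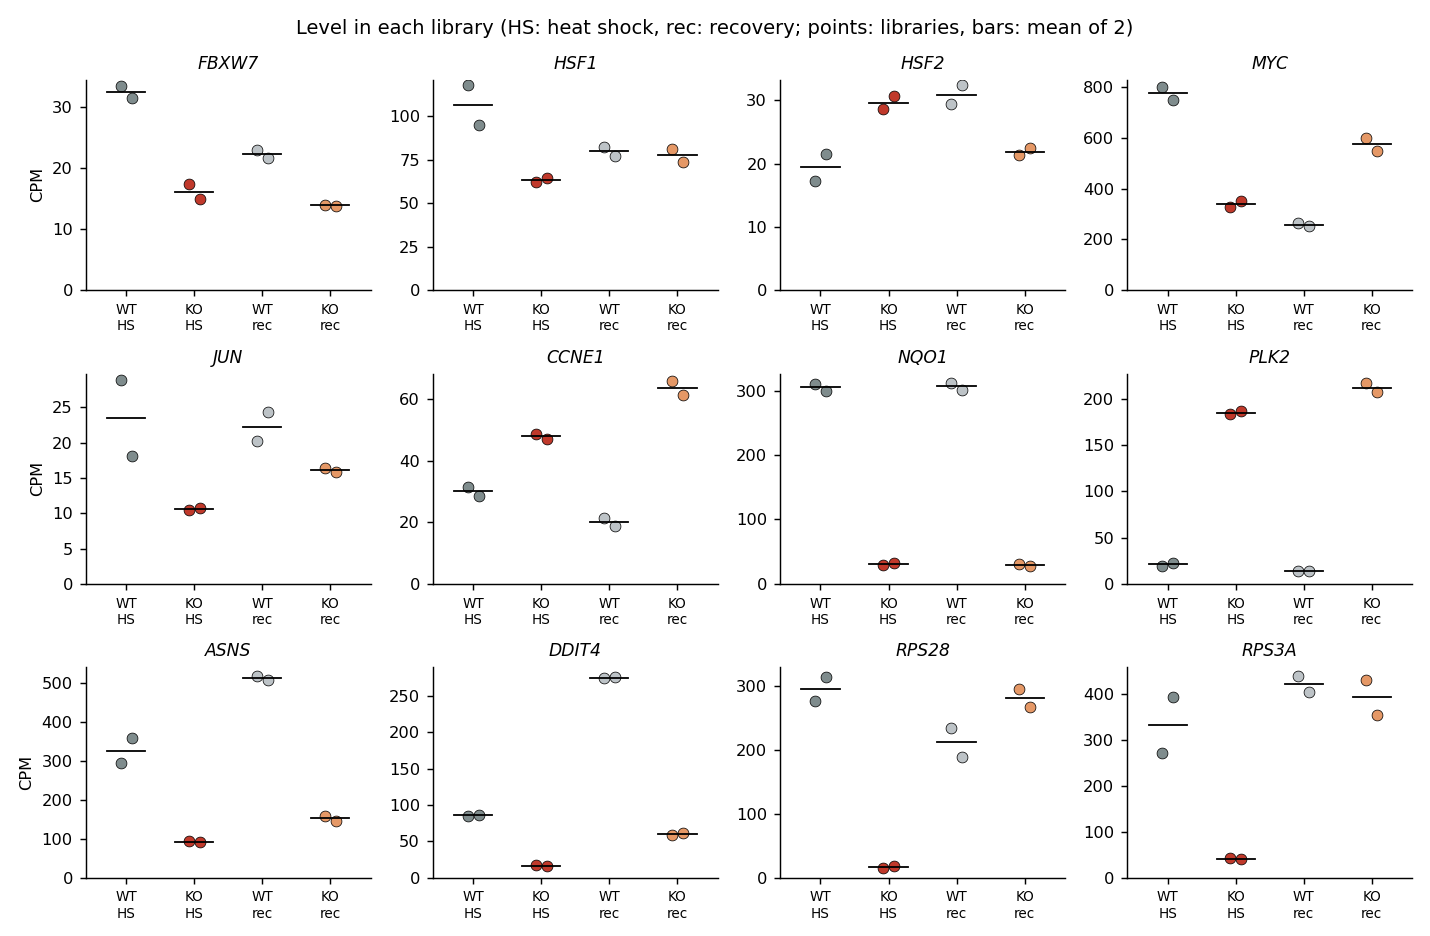
CPM (y axis, from 0) of 12 genes in each of the 8 libraries, in the order WT heat shock, KO heat shock, WT recovery and KO recovery, with points for libraries and a bar for the mean of 2. NQO1 and PLK2 keep their line difference at both conditions, MYC and HSF2 change order between them, and RPS28 and RPS3A are low in the KO heat shock libraries, at 15.3 and 18.5 CPM for RPS28.

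Parts of the ligase differed in both directions. Of 20 tested members of the list of FBXW7 and SCF ligase parts, 9 were higher and 6 lower, and 19 had no overlap of CPM. RBX1, the RING subunit, was at 34.2 and 51.3 CPM in WT and 18.6 and 22.4 in KO (-1.05 ± 0.15, edgeR adjusted p = 3.6e-05). It was named after its value was seen, as the other member lower by at least 2-fold. SKP2, the F-box protein that targets the inhibitor p27, was at 37.8 and 42.2 against 71.7 and 75.2 (0.88 ± 0.09). FBXO45, another F-box gene (0.80), DCUN1D1, which helps attach NEDD8 to cullins (0.82), and GLMN, a ligand of RBX1 (1.24), were higher. GLMN overlaps the more counted RPAP2 on the other strand.

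Immediate early genes, which respond to stress within minutes, had 13 of 48 members higher and 19 lower, and a median of 0.00 whose sign depends on the scaling. With offsets for length and GC content 19 were higher and 17 lower. HBEGF, a growth factor of the EGF family, was at 9.32 and 9.13 CPM in WT and 21.8 and 19.4 in KO (1.16 ± 0.12, edgeR adjusted p = 2e-06). BTG2, an antiproliferative gene, was at 20.5 and 22.0 against 41.1 and 42.7 (0.98 ± 0.10). ETV5, a factor downstream of ERK signalling, was at 110 and 116 against 51.9 and 55.4 (-1.08 ± 0.08). At recovery 28 members were higher in KO and 8 lower.

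Ribosomal protein genes had the lowest median of the 32 lists at heat shock. Of 77 tested, 66 were lower in KO and 3 higher, 41 were lower by at least 2-fold, and the median was -1.04. Their summed level was 61329 and 63316 CPM in WT at heat shock and 31770 and 31149 in KO at heat shock. At recovery the sums were 58992 and 56374 in WT and 67531 and 59730 in KO, so the KO heat shock libraries lay below all the others. At recovery 27 members were higher in KO and 6 lower, with a median of 0.18, and the change between conditions passed for 69 of 77. With offsets for length and GC content 64 were lower and the median was -0.98. These offsets used the longest annotated transcript of each gene, with a median of 1826 bases in this list. Where the expressed transcript is shorter, they cannot be taken to correct for its length, and this was not tested.

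The size of the difference varied widely within the ribosome. RPS27 stood at 46.9 and 42.0 CPM in WT and 2.96 and 1.88 in KO (-4.23 ± 0.18, edgeR adjusted p = 5.3e-10). RPS28, of the small subunit, was at 276 and 314 against 15.3 and 18.5 (-4.12 ± 0.13), and RPS3A at 272 and 394 against 43.7 and 40.01 (-2.99 ± 0.15). In the large subunit, RPL21 was at 37.7 and 58.2 against 5.84 and 4.15 (-3.28 ± 0.21), RPL17, which shares its strand with a readthrough gene, at -2.85, and RPL41, which encodes a very short peptide, at 1346 and 1646 against 237 and 238 (-2.66 ± 0.12). The stalk protein gene RPLP0 was at 2358 and 2514 CPM in WT and at 593 and 599 in KO (-2.03 ± 0.09).

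The only members higher in KO were RPL22, at 98.0 and 161 CPM against 224 and 230 (0.81 ± 0.16), RPL15, at 538 and 601 against 701 and 678 (0.28 ± 0.08), and RPSA (0.30 ± 0.11). RPSA did not pass without the second KO library (0.08), without the first WT library (0.22) or with offsets for length and GC content (0.17). RPL15 did not pass without the first KO (0.25) or the first WT library (0.16), and none of these 3 passed against a minimum of 1.5-fold (adjusted p = 0.13 for RPL22). Ribosomal protein genes have many processed pseudogenes, whose reads the authors' counting may have kept apart or dropped. The 820 processed pseudogenes tested had 112 higher and 107 lower, with a median of 0.06, and took 0.476% and 0.741% of counts in WT and 0.321% and 0.234% in KO. Transfer RNAs of mitochondria, which are short, took 0.376% and 0.621% of counts in WT at heat shock and 0.0444% and 0.0431% in KO at heat shock, against 0.397% to 0.622% in the 4 recovery libraries. At heat shock both shares were lower in KO, as were the ribosomal protein sums. At recovery processed pseudogenes took 0.94% and 0.82% of counts in WT and 0.656% and 0.622% in KO, with a median of -3.29. The ribosomal protein sums were higher in KO there. The part of these shares in the result was not tested.

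Nuclear genes of oxidative phosphorylation, which encode most subunits of the respiratory chain and ATP synthase, were also mostly lower in KO. Of 65 tested, 50 were lower and 7 higher, with a median of -0.61. COX6C, a subunit of cytochrome oxidase, was at 146 and 212 CPM in WT and 42.9 and 38.4 in KO (-2.14 ± 0.14, edgeR adjusted p = 2.7e-08). NDUFA3 of complex I was at 78.5 and 84.9 against 19.1 and 20.9 (-2.03 ± 0.11), CYC1 of complex III at 298 and 299 against 84.4 and 95.3 (-1.73 ± 0.09), and ATP5I of ATP synthase at 168 and 142 against 48.0 and 48.2 (-1.69 ± 0.11). In each the lines did not overlap. At recovery 44 members were higher in KO and 3 lower, with a median of 0.44, and the change passed for 61 of 65. Offsets for length and GC content gave 44 lower and 7 higher. They too used the longest annotated transcripts, with a median of 1582 bases in this list. The 14 listed genes of the mitochondrial genome had 2 higher and 8 lower, but 3 higher and 1 lower with an offset for length alone, and 3 and 6 with offsets for length and GC content. The count lower was 3 without the first KO library, 2 without the second, 11 without the first WT library and 5 without the second. Nuclear members higher numbered 4 without the first KO or the first WT library.

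Targets of ATF4 and CHOP, the factors of the integrated stress response, also had nearly all calls on one side. Of 31 tested, 25 were lower and 2 higher, with a median of -0.68. DDIT4, an inhibitor of mTORC1, was at 84.9 and 86.4 CPM in WT and 17.0 and 16.6 in KO (-2.35 ± 0.08, edgeR adjusted p = 8.5e-11). TRIB3, a pseudokinase that feeds back on ATF4, was at 116 and 134 against 32.5 and 30.6 (-1.99 ± 0.10), and the asparagine synthetase gene ASNS at 293 and 358 against 93.0 and 91.4 (-1.82 ± 0.10). DDIT3, which encodes CHOP, was at 59.1 and 74.8 against 21.3 and 18.2 (-1.76 ± 0.12), although MARS overlaps it on the other strand. PHGDH, the first enzyme of serine synthesis, was lower too (-1.04).

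The 2 higher members were PPP1R15A, which recruits the phosphatase that ends the response, at 43.3 and 40.7 CPM against 53.3 and 54.8 (0.37 ± 0.10), and XPOT, a tRNA exporter (0.34 ± 0.10), which stood at -0.03 with offsets for length and GC content. PPP1R15A did not pass without the second KO library (0.34, adjusted p = 0.051 by edgeR), nor XPOT without the first KO (0.30) or the first WT library (0.14). ATF4 itself was at 441 and 489 CPM in WT and 257 and 234 in KO (-0.92 ± 0.09), and was named after its value was seen. At recovery 20 members were lower and 4 higher, with a median of -0.52, and the change between conditions passed for 19 of 31. The difference at recovery was -2.20 for DDIT4 and -1.75 for ASNS, and smaller for TRIB3 (-0.73) and DDIT3 (-0.81). With offsets 24 were lower and 2 higher at heat shock.

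**Figure D4:**
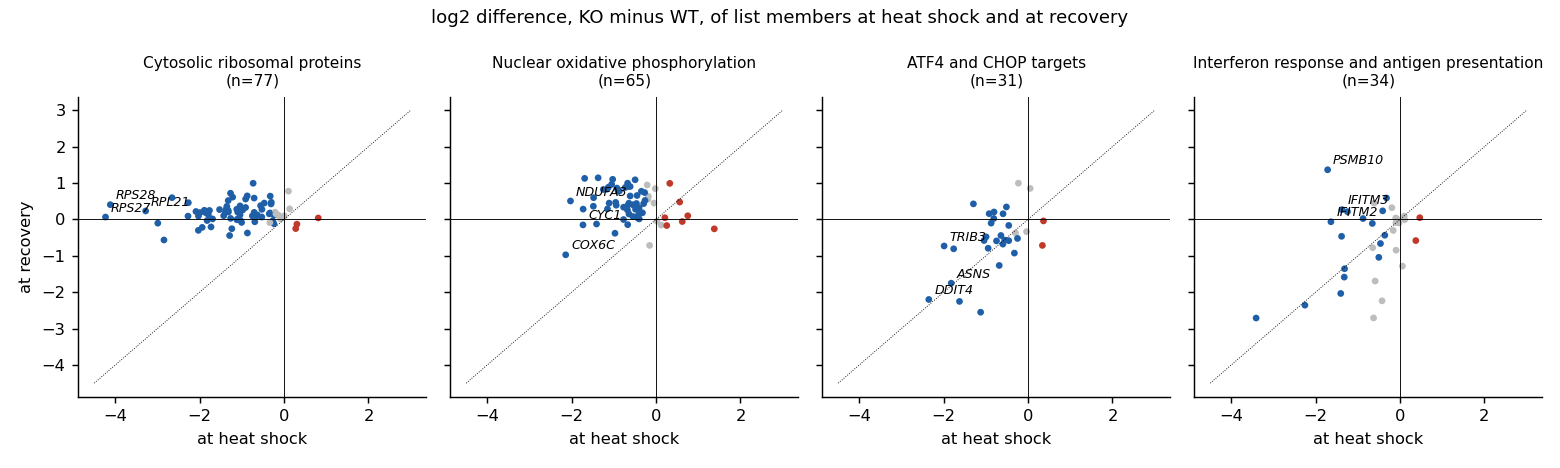
Log2 difference between KO and WT at heat shock (x axis) and at recovery (y axis) for the members of 4 lists, coloured by the call at heat shock (red higher, blue lower, grey did not pass), with a dotted line where both are equal. Of the ribosomal genes 66 of 77 are blue and of the respiratory genes 50 of 65, with median differences at recovery of 0.18 and 0.44, while among ATF4 targets DDIT4 (-2.35 and -2.20) lies near the line and TRIB3 (-1.99 and -0.73) above it.

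Genes of the NF-kappaB pathway had 8 of 23 members higher and 2 lower, with a median of 0.37. TNFAIP3, the feedback inhibitor A20, was at 2.46 and 2.31 CPM in WT and 6.81 and 7.08 in KO (1.54 ± 0.16, edgeR adjusted p = 2.9e-06). NFKBIA, which encodes the inhibitor IkB alpha, was at 35.6 and 33.8 against 55.8 and 59.4 (0.73 ± 0.09), and the apoptosis inhibitors BIRC2 (0.78) and BIRC3 (1.11) were higher. BCL3, a nuclear co-factor (-0.85), and IRF1 (-0.36) were lower, but IRF1 did not pass by DESeq2, with total count alone, or without either KO library or the first WT library. The median was 0.18 without the second KO library, 0.23 without the first WT library and 0.13 among members with a mean count of at least 50, and 12 were higher with offsets for length and GC content. At recovery 6 were higher and 6 lower.

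Wnt targets and feedback genes had 9 of 21 higher and 3 lower. BMP4, a secreted factor of the TGF-beta family counted in this list, was at 56.7 and 39.0 CPM in WT and 212 and 202 in KO (2.11 ± 0.13, edgeR adjusted p = 2.6e-08). AXIN2, a scaffold that limits beta-catenin, was at 16.5 and 12.3 against 29.4 and 28.2 (1.00 ± 0.13), RNF43, a ligase that removes Wnt receptors, at 42.4 and 46.8 against 109 and 99.3 (1.23 ± 0.09), and DKK1, a secreted inhibitor, at 348 and 376 against 715 and 731 (1.00 ± 0.08). All 4 were higher at recovery as well. MYC, CD44 (-0.45) and the receptor EPHB3 (-0.48) were the 3 lower members, and EPHB3 did not pass without the first WT library (-0.16) or without either KO library. Without the second WT library 7 were lower. RNF43 overlaps SUPT4H1.

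Notch pathway genes had 7 of 27 higher and 10 lower, and 10 and 7 with offsets for length and GC content. The median of -0.17 was 0.02 without the second WT library, -0.06 without the first KO library and -0.29 without the second. The target genes NRARP, at 5.63 and 5.80 CPM against 11.3 and 11.5 (1.00 ± 0.13), and HES2, at 6.50 and 6.82 against 15.3 and 16.2 (1.24 ± 0.12), were higher, and the co-activator MAML2 was lower, at 10.9 and 9.75 against 4.90 and 4.40 (-1.15 ± 0.15). Of 25 targets of YAP and TEAD 7 were higher and 6 lower, and 4 were higher without the first KO library. TGFB2 was at 0.102 and 0.359 CPM against 2.85 and 2.02, DLC1 had no count in WT and was at least 21.4-fold higher in KO, and F3, tissue factor, was at 34.1 and 40.1 against 80.6 and 82.2 (1.13 ± 0.09). AXL, a receptor kinase, was lower, at 99.3 and 95.5 against 35.5 and 40.1 (-1.36 ± 0.09).

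Mitotic genes were mostly higher in KO. Of 40 tested, 24 were higher and 4 lower, with a median of 0.32, and 25 and 5 with offsets for length and GC content. In bulk libraries more cells in mitosis and more RNA per cell cannot be told apart. The kinesins CENPE, at 71.0 and 91.2 CPM in WT and 198 and 177 in KO (1.21 ± 0.12, edgeR adjusted p = 1.3e-06), and KIF11, at 74.6 and 88.6 against 162 and 169 (1.02 ± 0.09), and the checkpoint kinases TTK, at 56.9 and 70.1 against 130 and 142 (1.10 ± 0.10), and BUB1, at 147 and 167 against 295 and 304 (0.93 ± 0.09), led it. The lower members were the phosphatase CDC25B (-0.85), the cyclin CCNB2 (-0.34), the kinase AURKB (-0.31, and 0.07 with offsets) and the microtubule protein CKAP5 (-0.31). AURKB did not pass without the first KO library, nor CKAP5 without the second, and 7 were lower without the second WT library.

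Genes of G1/S and DNA replication were split, with 18 of 47 higher and 15 lower. CDK6, a kinase of G1, was at 71.9 and 78.1 CPM against 207 and 207 (1.47 ± 0.08, edgeR adjusted p = 6.9e-09), the phosphatase CDC25A at 41.4 and 38.8 against 73.9 and 71.3 (0.86 ± 0.08) and the cyclin CCNA2 at 123 and 129 against 223 and 231 (0.85 ± 0.08). The thymidine kinase TK1 was lower, at 408 and 393 against 166 and 182 (-1.20 ± 0.09), and so was the D-type cyclin CCND3, at 46.3 and 41.2 against 20.2 and 21.4 (-1.07 ± 0.10). At recovery 39 of 47 were higher in KO and 1 lower. In ribosome biogenesis 16 of 40 were higher and 8 lower, led by the nucleolar proteins UTP15 (1.23), UTP20 (1.10), LYAR (0.96) and DDX21 (0.95), with NHP2 of the H/ACA particles at -1.49. Without the second WT library 14 were lower. At recovery 38 were higher and 1 lower.

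Of 24 genes of NRF2 and oxidative stress, 14 were lower and 2 higher. Besides NQO1, the lower ones named were the lipid peroxidase GPX4, at 396 and 345 CPM against 139 and 139 (-1.42 ± 0.09, edgeR adjusted p = 4.2e-08) and ferritin heavy chain FTH1 (-1.15). Both subunits of glutamate-cysteine ligase were higher, GCLM at 29.8 and 34.7 against 70.7 and 61.9 (1.04 ± 0.10) and GCLC at 60.3 and 63.0 against 85.9 and 81.8 (0.44 ± 0.08). With offsets 12 were lower and 6 higher. The NRF2 gene NFE2L2, looked up after the values were seen, did not pass (-0.06 ± 0.08).

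Glycolysis and hypoxia genes had 20 of 34 lower and 4 higher, with a median of -0.45. ALDOC, an aldolase, was at 87.5 and 73.4 CPM against 20.1 and 18.2 (-2.07 ± 0.11), NDRG1, a hypoxia-induced gene, at 163 and 148 against 54.4 and 59.5 (-1.45 ± 0.09) and the hexokinase HK1 at 165 and 134 against 69.9 and 67.1 (-1.12 ± 0.10). The glucose transporter SLC2A1 (0.47) and the prolyl hydroxylases EGLN1 (0.62) and EGLN3 (1.00) were higher, and HIF1A is given above. SPTSSA overlaps EGLN3 on the same strand, as an unnamed transcript with more reads does ALDOC. The median was -0.24 with offsets for length and GC content, and 18 were lower and 3 higher. Cholesterol synthesis and SREBP targets had 17 of 34 lower and 10 higher, from SQLE (-0.81), EBP (-0.89) and PMVK (-0.98) to IDI1 (0.88) and the carrier STARD4 (1.27). With offsets 11 were lower and 6 higher. The median of -0.23 was -0.15 without the first WT library and -0.38 without the second.

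Interferon response and antigen presentation genes had 17 of 34 lower and 2 higher, with a median of -0.48. IFITM2 was at 153 and 111 CPM against 43.6 and 41.3 (-1.64 ± 0.13, edgeR adjusted p = 2e-07) and IFITM3 at 481 and 373 against 163 and 167 (-1.37 ± 0.12), both membrane proteins that block viral entry and near-identical in part. The ubiquitin-like ISG15 (-1.25), the sensor OAS3 (-0.88) and the immunoproteasome subunit PSMB10 (-1.72) were lower, and the peptide-loading factor TAPBP (0.47) was higher. An unnamed transcript with more reads overlaps PSMB10 on the same strand.

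Lysosome and autophagy genes had 21 of 36 lower and 4 higher, and 7 were higher with offsets for length and GC content. The count higher was 1 without the first KO library and 2 without the second. NPC2, a cholesterol carrier of lysosomes, was at 173 and 144 CPM against 43.4 and 46.3 (-1.82 ± 0.12), and the factor TFE3 (-0.997), the protease CTSB (-0.73), progranulin GRN (-0.69) and GABARAP (-0.60) were lower. Proteasome subunits were split, with 11 of 33 higher and 13 lower, and with 12 higher and 10 lower by total count alone. The count higher was 7 without the first KO library, 6 without the second, and 7 with offsets for length and GC content. PSMD12 was higher (0.82), and PSMD4 (-0.96), PSMA7 (-0.93), PSMB7 (-0.80) and PSMB6 (-0.74) were lower. At recovery 29 were higher. Of 32 Mediator genes, 13 were higher and 8 lower, from CCNC of the kinase module (1.12) to MED11 (-1.13), which CXCL16 overlaps on the other strand.

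SR proteins and splicing kinases had 10 of 22 higher and 2 lower, and 5 lower without the second WT library. SRRM1, a splicing co-activator, was at 329 and 305 CPM against 711 and 705 (1.16 ± 0.08, edgeR adjusted p = 8e-08), SRPK1, the kinase of SR proteins, at 151 and 158 against 280 and 287 (0.87 ± 0.08) and SRSF1 at 321 and 294 against 491 and 462 (0.63 ± 0.09). This list has the lowest median GC content of the lists, 41.1%, and with offsets 5 were higher and 5 lower with a median of -0.05.

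Epithelial and mesenchymal genes bear on the identity of the cells. Of 40 epithelial and colon genes 27 were tested, 6 were higher and 12 lower. The epithelial adhesion gene EPCAM was at 247 and 287 CPM in WT and 299.8 and 288 in KO and did not pass, and neither did KRT19 or the intestinal factor CDX2. CLDN4, a tight junction protein, was at 126 and 109 against 21.5 and 22.6 (-2.41 ± 0.10, edgeR adjusted p = 2.4e-10), the factors GRHL2 (-1.49) and ELF3 (-1.37) were lower, and so was KRT18 (-1.13), which KRT8 overlaps. KRT23, a further keratin, was higher, at 6.19 and 4.36 against 19.0 and 18.9 (1.84 ± 0.15). The colon markers CEACAM5 and LGALS4 had at most 1 count in any heat shock library.

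Of 34 mesenchymal genes 18 were tested, 4 were higher and 9 lower. TWIST1 was at 1.18 and 1.28 CPM against 5.05 and 4.49 (1.95 ± 0.21), SNAI1 at 12.7 and 12.1 against 22.8 and 21.6 (0.84 ± 0.11) and ZEB1 at 4.81 and 4.15 against 10.03 and 7.39 (0.95 ± 0.19), all 3 factors that repress epithelial genes. The related SNAI2 did not pass the filter on low counts, with 5 and 6 counts in WT and 0 and 2 in KO. ZEB2 and TWIST2 had no count. CAV1 of caveolae, at 459 and 414 against 153 and 166 (-1.45 ± 0.10), and S100A4 (-1.69) were lower. ZEB1 did not pass with offsets. The fibroblast markers DCN and LUM had no count in these 4 libraries. Of 19 immune, blood and endothelial markers found, 14 did not pass the filter on low counts, and their summed level was 31.6 and 25.9 CPM in WT and 18.3 and 19.9 in KO, nearly all from CD68, a lysosomal gene.

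RNAs without a poly-A tail bear on how the libraries were made, since poly-A selected or ribosome-depleted RNA was used and the sources used here do not say which library had which. Of 45 replication-dependent histone genes 25 were tested, 10 were higher and 1 lower. The count higher was 5 without the first KO library and 14, with 0 lower, with offsets for length and GC content. HIST1H1E was at 0.154 and 0.359 CPM against 1.76 and 1.48 (2.62 ± 0.49) and HIST1H3J at 0.563 and 0.308 against 2.02 and 1.85 (2.13 ± 0.34). The summed level of 22 abundant non-polyadenylated RNAs was 29.5 and 25.9 CPM in WT and 48.7 and 42.7 in KO at heat shock, and 14.3 to 26.2 in the recovery libraries. Of the 11 tested, 3 were higher and 2 lower. The lower ones were SCARNA13 (-1.55) and SNORD17 (-0.55), which did not pass with offsets for length and GC content (-0.98 and 0.10). RPPH1, the RNA of RNase P, was at 0.563 and 1.18 against 5.43 and 4.55 (2.50 ± 0.29), with PARP2 overlapping on the other strand, and RN7SK at 8.14 and 6.36 against 18.4 and 14.3 (1.17 ± 0.21). The part of these levels in the line difference was not tested.

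**Figure D5:**
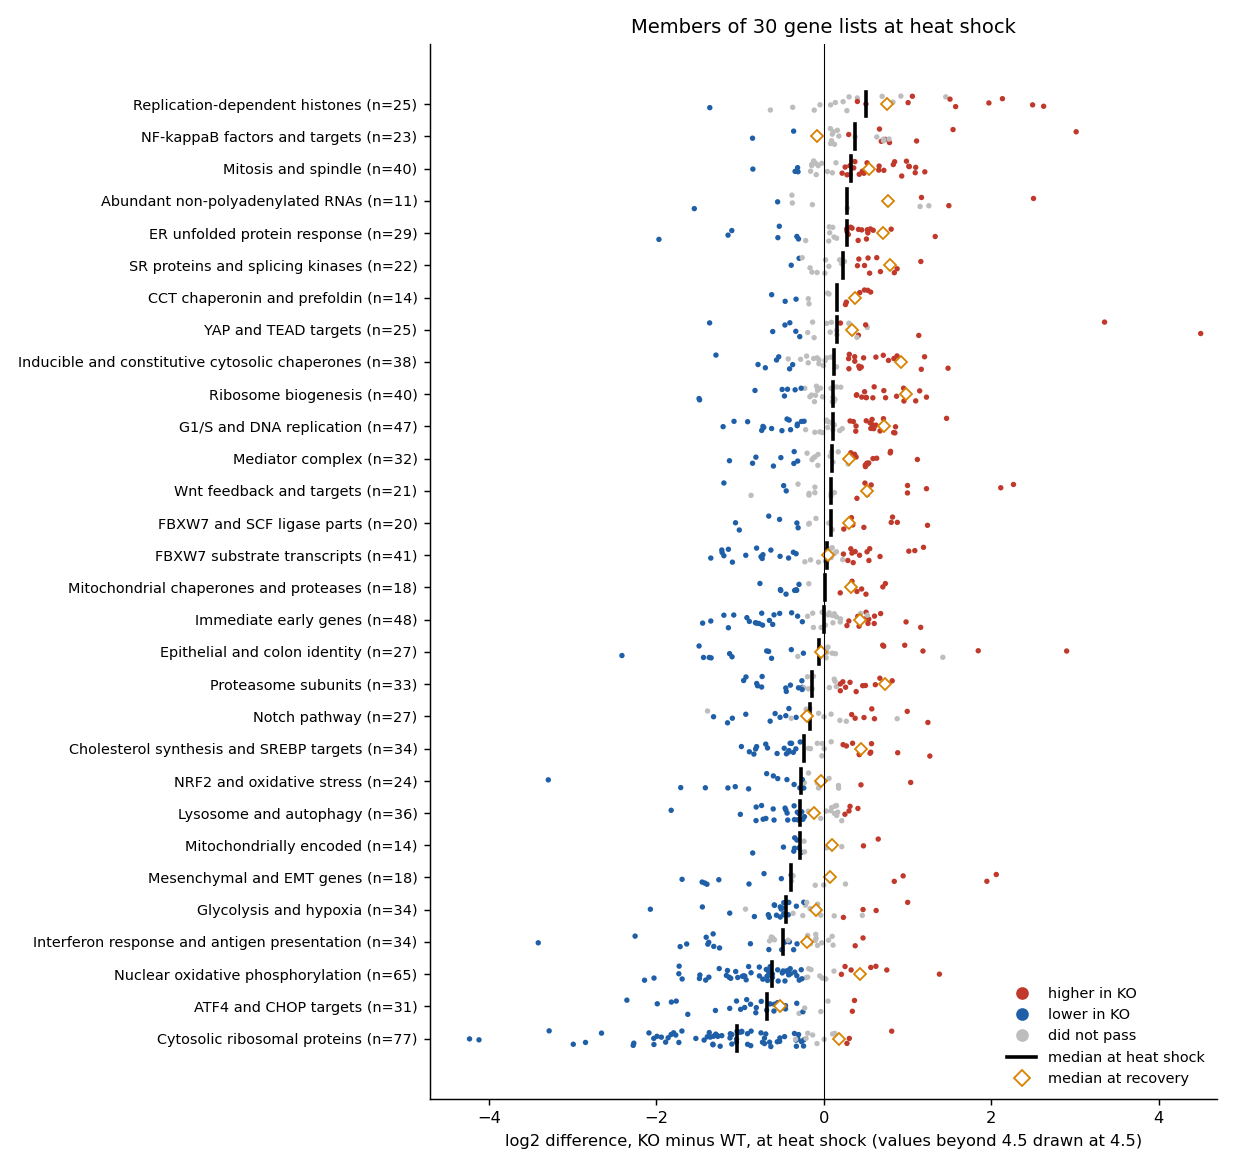
Log2 difference between KO and WT at heat shock (x axis) for each tested member of 30 lists, with the number tested, coloured by call, with a bar for the median and an open diamond for the median at recovery. The ribosomal list has the lowest median (-1.04) with its recovery median at 0.18, and ATF4 targets are low at both (-0.68 and -0.52).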

How the data were processed

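The authors deposited 4 comparison tables, 1 per cell line and replicate, each with the read counts of a recovery and a heat shock library for 55075 Ensembl genes and, per the file headers, a log2 fold change. These deposited counts are raw and whole. Genes listed as NA had no read in either library of a table and were set to 0. Strand-specific libraries were made from poly-A or ribosome-depleted RNA, per the labels' protocols. CASAVA, TopHat and hg19 are named in the submitters' processing notes, without versions. The sources used here give neither the read counter nor its use of strand. The deposited log2 values were used only to read the direction of each table: they equalled the log2 ratio of the first to the second column within 1e-06, which does not show which library was heat shocked.

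All 8 libraries entered 1 edgeR 4.0.16 fit (R 4.3.3) with a mean per group, filterByExpr and TMM scaling, which left 4 residual degrees of freedom. CPM values use TMM-scaled totals. The code of the fit was run on simulated counts in which few genes changed and no length or GC trend was set. Those settings differ from these data, so the run does not check error rates here. Benjamini-Hochberg adjustment ran over all 17471 genes. Transcript length and GC content were those of each gene's longest transcript in GENCODE 29. Gene class also came from GENCODE 29, and promoter windows from RefSeq, matched by symbol. A total of 16 alternatives were run, among them DESeq2 1.42.0, other scalings and filters, each heat shock library left out, and offsets per library smooth in transcript length and GC content.

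The members and the 32 lists were chosen with earlier results of these data known. The text names FBXW7, HSF1, HSF2, MYC, JUN and CCNE1; the 15 protein-coding genes with the largest difference in each direction among those that passed with no overlap of CPM and a mean count of 50 or more; the same among transcripts of at least 1500 bases; and, per list, up to 5 members with the lowest p and all members of a direction with 5 or fewer calls. Y-linked genes, XIST, clone names and pseudogenes are not named, and small RNAs only from the list of non-polyadenylated RNAs. The change of the line difference between conditions was read for 16 single genes. Some genes and 1 list that the rule would name are not reported here.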

Additional observations from a re-analysis of the deposited data

Results flagged for a closer look

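For 16 genes the line difference at heat shock was set against that at recovery in the same edgeR fit, and 7 passed at an adjusted p under 0.05, beside 57.2% of all genes tested. The change was -4.52 on the log2 scale for RPS28 (-4.12 at heat shock and 0.41 at recovery, adjusted p = 2.8e-09) and -2.35 for MYC (-1.19 and 1.15, adjusted p = 1.4e-08). It was -1.19 for ARAF (-3.58 and -2.39), -0.99 for CCNE1 (0.67 and 1.66), -0.71 for HSF1 (-0.75 and -0.04) and -0.68 for JUN (-1.14 and -0.46). HSF2 changed by 1.11 in the other direction (0.61 and -0.50). MYC, HSF2 and RPS28 thus had differences of opposite sign at the conditions. For FBXW7, NQO1, ODZ3, PROM2, PODXL2, STC1, LARGE, TM4SF18 and STXBP6 the change did not pass, which does not show that their differences were equal. No group has 4 or more libraries, so no single library was tested as an outlier.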

How the results depend on the processing

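The counts of 4781 higher and 4925 lower genes stayed within 1.5 times under 15 of 16 alternatives. Against a minimum change of 1.5-fold, 1278 were higher and 1600 lower. With a mean count of at least 50, genes at least 2-fold higher fell from 1026 to 523 and lower from 1560 to 911, and among protein-coding genes alone 615 were at least 2-fold higher. DESeq2 called 4366 and 4079, upper-quartile scaling 4323 and 5527, and total count alone 5376 and 4222. Leaving out each heat shock library gave 3973 to 4676 higher and 3865 to 5266 lower. Same-numbered heat shock libraries of the lines did not deviate together (r = -0.0398 across genes), which with 2 libraries per line cannot show that they were unpaired. With the replicate block 4751 were higher and 4905 lower, and 1018 and 1552 by at least 2-fold. Within a line, the deposited comparisons pair recovery with heat shock by replicate number. The tests of the change between conditions did not use that pairing. Of 220 genes open to naming, 154 kept their call under every one of the 16 alternatives in which they were tested, and 5 reversed under 1 of them. Some genes were not tested in every alternative, such as those left out by its filter or gene class. With offsets for length and GC content ATG5 stood at -0.21, AURKB at 0.0716, HIF1A at -0.34, SNORD17 at 0.10 and XPOT at -0.0325, and the cause was not tested. Limits: 2 libraries per line, 1 KO line, no unheated cells, an unknown RNA selection per library, counting that may not have used strand, and a heat shock column known only from the order of names.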
